A study of Homo sapiens with 12 samples.

Results

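Mantle cell lymphoma (MCL) cell lines given ironomycin and ibrutinib together were compared with untreated cells of the same lines, over all genes that passed a filter on low counts. The comparison used 6 of the series' 12 samples, the 3 labelled Irono+Ibru and the 3 labelled Ctrl, and 18674 of 63677 genes in the count table. Each treatment had 1 library from each of the lines JEKO1, JVM2 and MAVER1, all taken at 48 h, and the line served as the replicate (n = 3 in each group). JEKO1 received 50 nM ironomycin with 0.5 µM ibrutinib, JVM2 250 nM with 1.5 µM, and MAVER1 250 nM with 6.25 µM, so line and dose cannot be told apart. The remaining libraries, of the same lines at the same doses with ironomycin alone (Irono) or ibrutinib alone (Ibru), entered the fit and are given beside the combination. Every group was a cultured line with no other cell type added, and nothing in the labels says that a line was grown in separate cultures.

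Ironomycin is a derivative of salinomycin that traps iron in lysosomes, and ibrutinib is a covalent inhibitor of BTK, the kinase that carries signals from the B-cell receptor (BCR) towards calcium, ERK and NF-kB. The unfolded protein response (UPR) is the answer of a cell to misfolded protein in the endoplasmic reticulum (ER). It has 3 sensors in the ER membrane: ERN1 (IRE1) splices the mRNA of the factor XBP1, ATF6 raises chaperones, and EIF2AK3 (PERK) phosphorylates the initiation factor eIF2, which favors translation of ATF4 and then of its target DDIT3 (CHOP). Other kinases reach the same ATF4 step when amino acids or heme run short or when mitochondria are stressed. Iron itself is needed for iron-sulfur clusters, heme, the respiratory chain and the making of deoxynucleotides.

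Levels are given in CPM, the reads of a gene scaled to the TMM-normalized size of its library, and changes as log2 fold changes of Irono+Ibru against Ctrl with their standard error (SE) from edgeR's quasi-likelihood test with the line as a block. Adjusted p-values are Benjamini-Hochberg values over the 18674 genes tested. A gene was called, and is said to have risen or fallen, at an adjusted p-value under 0.05 with a log2 change no smaller than 1 in either direction. Genes said to have passed at any size had an adjusted p-value under 0.05 without that minimum. Log2 ratios within a line compare 2 libraries, with a prior count of 2, and have no replicate. Limits on the reads of a gene in a line refer to its Ctrl and Irono+Ibru libraries. CPM values are not divided by gene length and compare a gene only with itself.

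Across all genes tested 898 were called higher, 4.81% of the total, and 277 lower, 1.48%, and the median log2 fold change of all genes was 0.05. At any size 2655 genes (14.2%) passed higher and 2613 (14.0%) lower. These shares are the background for the counts of every list below, and no list was tested against them. At least 20 reads in at least 1 library of every line were found for 509 of the 1175 genes called, and 484 of these changed in the same direction in all 3 lines. JVM2 moved least, although the difference in effect between lines was not tested: it gave the smallest of the 3 ratios for 398 of those 509 genes, MAVER1 for 73 and JEKO1 for 38. The genes called higher with such reads had a median log2 ratio of 1.61 in JEKO1, 1.38 in MAVER1 and 0.65 in JVM2, and those called lower -1.61, -1.43 and -0.56. Among the 12735 genes with these reads, 8.1% were at least 1 higher on the log2 scale in JEKO1, 6.4% in MAVER1 and 1.59% in JVM2, and 3.69%, 2.85% and 0.895% at least 1 lower. The number of calls rested on the lines in the fit: 30 genes were called without JEKO1, 1877 without JVM2 and 22 without MAVER1, and 5 when only the 6 libraries were fitted, which leaves 2 residual degrees of freedom in place of 6. Of the 108 called genes named below, 10 stayed called without JEKO1, 100 without JVM2 and 4 without MAVER1, and the genes that stayed called in every case were ABCG1, FCRL5, RGS2 and APPAT. With library totals in place of TMM 1266 genes were called higher and 197 lower, a share of 86.5% higher in place of 76.4%, and the median of all genes moved to 0.18.

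The libraries with both drugs held 35448523 to 38120929 counted reads and the control libraries 38110422 to 38630809. The share of reads on mitochondrial genes was 2.05% in Ctrl and 0.883% in Irono+Ibru in JEKO1, 2.03% and 1.89% in JVM2, and 1.92% and 1.21% in MAVER1. The number of genes with a read was higher with both drugs in each line, from 24754 to 26175 in JEKO1, 24594 to 25024 in JVM2 and 23103 to 24023 in MAVER1. All 11 B-cell markers listed passed the filter, with a summed level of 2320 to 3550 CPM in Ctrl and 1990 to 2500 CPM in Irono+Ibru. Of the 6 marker lists of other cell types, 5 summed to at most 33.9 CPM in any of the 6 libraries, and markers of neurons to at most 187 CPM.

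Among genes called that changed the same way in all 3 lines, with a mean of at least 1 on the log2 CPM scale and the 20 reads named above, the 12 largest falls were led by ABCG1, a sterol exporter. It went from 102 to 14.6 CPM in JEKO1, from 103 to 15.6 in MAVER1 and from 41.2 to 3.48 in JVM2 (log2 fold change -3.02 ± 0.27, adjusted p = 0.000796). Every library with both drugs lay below every control, and the change against Ctrl was -2.34 with ironomycin alone and -0.20 with ibrutinib alone. FCRL5, an Fc receptor-like protein of B cells that damps BCR signals, went from 35 to 4.47 CPM in JEKO1, from 49.9 to 11.8 in MAVER1 and from 19.6 to 2.64 in JVM2 (log2 fold change -2.64 ± 0.28, adjusted p = 0.00135), again without overlap of the groups, and the change against Ctrl was -1.09 with ironomycin alone and -1.54 with ibrutinib alone. STAP1, an adaptor protein downstream of BCR-linked tyrosine kinases, went from 7.31 to 1.32 CPM in JEKO1, from 21.6 to 5.01 in MAVER1 and from 4.2 to 0.701 in JVM2 (log2 fold change -2.39 ± 0.32, adjusted p = 0.00253). MAVER1 started higher than the other lines, so the groups overlapped while each line fell. RGS2, which shortens signals of G-protein-coupled receptors, went from 15.3 to 3.67 CPM in JEKO1, from 30.2 to 7.49 in MAVER1 and from 6.82 to 2.4 in JVM2 (log2 fold change -1.88 ± 0.17, adjusted p = 0.000796), and the change against Ctrl was -0.66 with ironomycin alone and -1.15 with ibrutinib alone. SH2D2A, an adaptor of lymphocyte tyrosine kinases, went from 37.3 to 5.39 CPM in JEKO1, from 9.29 to 2.51 in MAVER1 and from 66.7 to 29.1 in JVM2 (log2 fold change -1.92 ± 0.27, adjusted p = 0.0032), and the change against Ctrl was -0.52 with ironomycin alone and -1.40 with ibrutinib alone. For RGS2 and SH2D2A the fall in each line exceeded 1 on the log2 scale although the lines differed several-fold in their control level.

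PTPN6 (SHP-1), a phosphatase that ends BCR signaling, had a log2 fold change of -2.54 ± 0.50 (adjusted p = 0.00622), with log2 ratios of -4.58 in JEKO1, -2.45 in MAVER1 and -0.94 in JVM2. NAPSB, a pseudogene of the aspartic protease napsin, fell without overlap (log2 fold change -2.48 ± 0.48, adjusted p = 0.00576) and most in MAVER1, from 47.4 to 2.24 CPM. Its protein-coding relative NAPSA is closely similar in sequence, so reads could be split between them. WNT10A, a secreted WNT ligand, went from 5.3 to 1.11 CPM in JEKO1, from 24.9 to 4.57 in MAVER1 and from 10.2 to 6.95 in JVM2 (log2 fold change -1.81 ± 0.59, adjusted p = 0.0418), and the change against Ctrl was -1.30 with ironomycin alone and -1.64 with ibrutinib alone. Its adjusted p-value was 0.0505 with DESeq2 and 0.0541 with library totals. HCST (DAP10), a signaling partner of activating receptors, went from 5.28 to 0.686 CPM in JEKO1, from 11.2 to 2.82 in MAVER1 and from 32.1 to 25.2 in JVM2 (log2 fold change -1.57 ± 0.36, adjusted p = 0.0111), and the change against Ctrl was -0.56 with ironomycin alone and -1.15 with ibrutinib alone. In JVM2 the level of HCST with both drugs was close to that of its control, whereas in the other lines it was several-fold lower. ADGRG5, an adhesion G-protein-coupled receptor, fell by 1.75 ± 0.47 (adjusted p = 0.0202), with log2 ratios of -0.97 in JEKO1, -3.34 in MAVER1 and -1.45 in JVM2. SPRY1, a feedback inhibitor of ERK signaling, fell by 1.58 ± 0.33 (adjusted p = 0.00769) and did not overlap between groups. MT-CO1, a mitochondrial gene described further on, completed the 12 largest falls.

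The 12 largest rises under the same rule were led by HID1, a protein of secretory granule formation, which went from 1.96 to 50.3 CPM in JEKO1, from 1.88 to 90.5 in MAVER1 and from 1.2 to 1.7 in JVM2 (log2 fold change 4.16 ± 0.81, adjusted p = 0.00617). JVM2 stayed near its control level. ADGRG1 (GPR56), an adhesion receptor, went from 2.26 to 79.9 CPM in JEKO1, from 0.47 to 14.7 in MAVER1 and from 2.06 to 4.34 in JVM2 (log2 fold change 3.81 ± 0.68, adjusted p = 0.00457). Every library with both drugs was above every control. GDF15, a secreted stress cytokine and ATF4 target, went from 0.126 to 5.58 CPM in JEKO1, from 0.111 to 7.65 in MAVER1 and from 6.39 to 16.9 in JVM2 (log2 fold change 3.58 ± 0.77, adjusted p = 0.00845). JVM2 had the highest control level and the smallest rise. INHBE, an inhibin subunit and another ATF4 target, went from 6.31 to 142 CPM in JEKO1, from 3.32 to 95 in MAVER1 and from 32.9 to 53.6 in JVM2 (log2 fold change 3.09 ± 0.75, adjusted p = 0.0135) without overlap of the groups. Its neighbor INHBC, a related subunit, had log2 ratios of 3.5 in JEKO1, 3.23 in MAVER1 and 0.22 in JVM2 (log2 fold change 2.39 ± 0.55, adjusted p = 0.0112).

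BEST1, a chloride channel gene that lies next to FTH1, went from 0.402 to 13.8 CPM in JEKO1, from 0.194 to 1.87 in MAVER1 and from 2.34 to 9.43 in JVM2 (log2 fold change 3.38 ± 0.56, adjusted p = 0.00383). The strand setting of the counting is not given in the sources used here, so reads of genes that overlap or abut cannot be assigned with certainty. CSF1, the growth factor of macrophages, went from 7.89 to 144 CPM in JEKO1, from 4.23 to 24.9 in MAVER1 and from 26.4 to 35.9 in JVM2 (log2 fold change 2.60 ± 0.68, adjusted p = 0.0181), and the change against Ctrl was 1.82 with ironomycin alone and -0.13 with ibrutinib alone. ASS1, which makes argininosuccinate on the way to arginine, went from 18.3 to 284 CPM in JEKO1, from 53.4 to 459 in MAVER1 and from 60.5 to 138 in JVM2 (log2 fold change 2.55 ± 0.54, adjusted p = 0.00804), and the change against Ctrl was 2.23 with ironomycin alone and 0.57 with ibrutinib alone. With ibrutinib alone ASS1 was at 116 CPM in JEKO1, 54.1 in MAVER1 and 40.3 in JVM2, which was several-fold above the control in JEKO1 and near or below it in the other lines. ERN1, the IRE1 sensor, went from 29.2 to 287 CPM in JEKO1, from 28.5 to 254 in MAVER1 and from 45.6 to 73.8 in JVM2 (log2 fold change 2.42 ± 0.47, adjusted p = 0.00581). FBXO32 (atrogin-1), a ubiquitin ligase subunit of atrophy programs, rose by 2.30 ± 0.56 (adjusted p = 0.0133), CTTN, an actin-binding protein, by 2.25 ± 0.63 (adjusted p = 0.0242), and the long non-coding RNA MIAT by 2.23 ± 0.48 (adjusted p = 0.00826). Of these, FBXO32 did not overlap between groups.

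**Figure D1:**
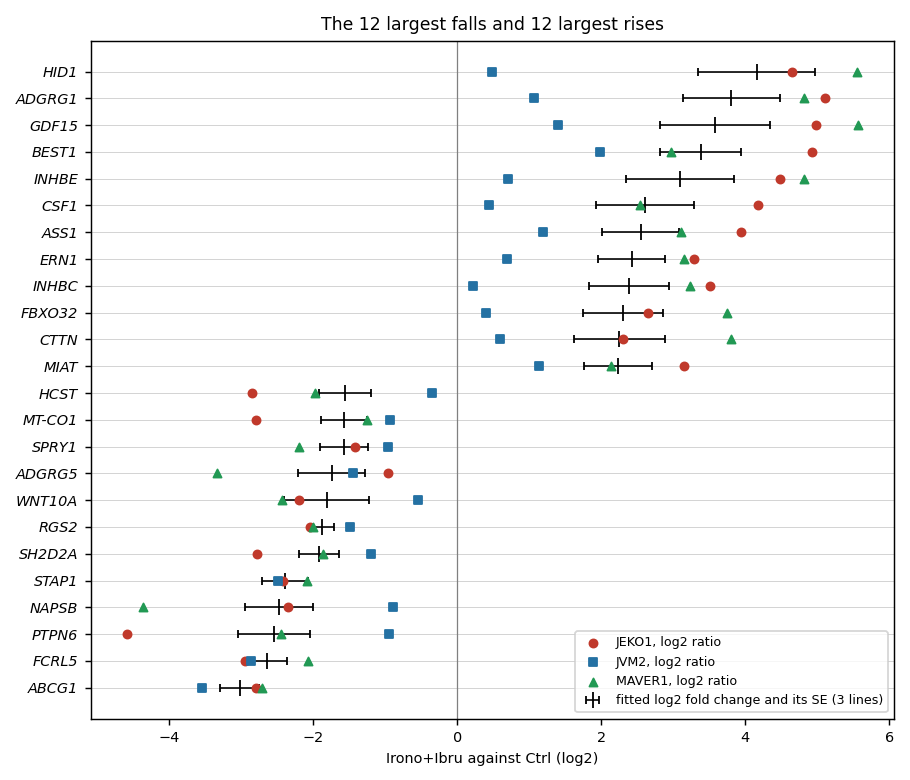
Log2 fold change of Irono+Ibru against Ctrl for the 12 largest falls and 12 largest rises that shared their direction in all lines; black bars give the fitted value with its SE over 3 lines and symbols the log2 ratio in JEKO1, JVM2 and MAVER1. JVM2 is the line nearest to 0 for all 12 rises, whereas ABCG1, FCRL5, STAP1 and RGS2 fell by similar amounts in the 3 lines.

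A change of at least 1 on the log2 scale in every line was found for 57 called genes, 44 higher and 13 lower. Among those with the largest smallest-line ratio, and besides ABCG1, STAP1, FCRL5, BEST1, RGS2 and GDF15, were SEMA3B, a secreted semaphorin, and PLXNB3, a semaphorin receptor. SEMA3B went from 0.653 to 3.05 CPM in JEKO1, from 0.608 to 4.04 in MAVER1 and from 0.171 to 1.59 in JVM2 (log2 fold change 2.60 ± 0.30, adjusted p = 0.00174) and did not overlap between groups. PLXNB3 went from 0.126 to 0.497 CPM in JEKO1, from 0.912 to 5.88 in MAVER1 and from 0.485 to 2.96 in JVM2 (log2 fold change 2.54 ± 0.36, adjusted p = 0.00299). SLC34A3, a sodium-phosphate cotransporter, went from 0.653 to 4.38 CPM in JEKO1, from 0.746 to 12.4 in MAVER1 and from 0.171 to 0.674 in JVM2 (log2 fold change 3.19 ± 0.41, adjusted p = 0.00247). These were low levels, and in JVM2 the control library held 6 reads for SLC34A3 and 6 for SEMA3B. SYTL1, which tethers exocytic vesicles, was well measured in JEKO1 and MAVER1 and went from 46.9 to 290.5 CPM in JEKO1, from 75.9 to 334 in MAVER1 and from 0.885 to 2.18 in JVM2 (log2 fold change 2.21 ± 0.20, adjusted p = 0.000796). MAN1C1, a Golgi mannosidase that trims N-glycans, had log2 ratios of 3.05 in JEKO1, 1.46 in MAVER1 and 1.29 in JVM2, and CCDC188 of 2.60 in JEKO1, 1.48 in MAVER1 and 1.94 in JVM2. APPAT, a long non-coding RNA, went from 10.2 to 27.2 CPM in JEKO1, from 2.29 to 8.65 in MAVER1 and from 0.514 to 1.46 in JVM2 (log2 fold change 1.61 ± 0.14, adjusted p = 0.000796), with adjusted p-values of 0.0615 against ironomycin alone and 0.00385 against ibrutinib alone. PDCD1 (PD-1), an inhibitory receptor chosen after its values were seen, was among the 13 that fell and went from 35.3 to 7.48 CPM in JEKO1, from 4.15 to 1.85 in MAVER1 and from 7.08 to 3.45 in JVM2 (log2 fold change -1.56 ± 0.35, adjusted p = 0.0101), and the change against Ctrl was 0.03 with ironomycin alone and -1.44 with ibrutinib alone.

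Targets of the PERK-ATF4-CHOP branch formed the list with the highest median. Of 28 genes listed 25 passed the filter, 14 were called higher and 0 lower, and 22 passed at any size; the median log2 fold change was 1.24, with 1.71 in JEKO1, 1.38 in MAVER1 and 0.36 in JVM2. TRIB3, a pseudokinase that restrains AKT, went from 41.9 to 599.9 CPM in JEKO1, from 117 to 389 in MAVER1 and from 105 to 124 in JVM2 (log2 fold change 1.96 ± 0.55, adjusted p = 0.0238). In all lines it stood above the control range, but in JVM2 by little. DDIT3 went from 18.6 to 143 CPM in JEKO1, from 15.3 to 51.2 in MAVER1 and from 12.6 to 20.3 in JVM2 (log2 fold change 1.82 ± 0.33, adjusted p = 0.00462), and the change against Ctrl was 1.39 with ironomycin alone and -0.18 with ibrutinib alone. CHAC1, which breaks down glutathione, went from 7.11 to 23.4 CPM in JEKO1, from 3.9 to 31.8 in MAVER1 and from 22.6 to 28.6 in JVM2 (log2 fold change 1.60 ± 0.47, adjusted p = 0.0275). CCPG1, an ER-phagy receptor, VLDLR, a lipoprotein receptor, and INHBE and GDF15 above had larger changes than DDIT3, with 2.02 ± 0.42 for CCPG1 and 1.95 ± 0.44 for VLDLR.

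The remaining called members were PPP1R15A (GADD34), which reverses eIF2 phosphorylation, with 1.52 ± 0.28, KLHL24 with 1.57 ± 0.31, SESN2, an mTORC1 inhibitor, with 1.41 ± 0.28, CREBRF with 1.39 ± 0.25, the secreted glycoprotein STC2 with 1.35 ± 0.40, and the transcription factors CEBPB with 1.24 ± 0.27 and ATF3 with 1.18 ± 0.36. ATF4 itself, which is controlled mainly at translation, passed at any size with 0.48 ± 0.13 (adjusted p = 0.0218), and ATF5 with 0.96 ± 0.21 (adjusted p = 0.00925). STC2 had at most 7 reads in the MAVER1 libraries compared.

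Of the UPR sensors and IRE1-XBP1 targets all 33 listed genes had a log2 fold change above 0, 9 were called higher, 0 lower and 22 passed at any size; the median was 0.68, with 0.91 in JEKO1, 0.96 in MAVER1 and 0.04 in JVM2. Besides ERN1, these were the ER-associated degradation genes DERL3 (1.90 ± 0.30) and SEL1L (1.45 ± 0.28), the ER retrieval receptor KDELR3 (1.84 ± 0.35), the co-chaperones DNAJB9 (1.49 ± 0.30) and DNAJC3 (1.10 ± 0.24), the COPII coat protein SEC24D (1.46 ± 0.35), ARFGAP3 (1.26 ± 0.25) and WFS1 (1.14 ± 0.31). SEL1L went from 56.8 to 206 CPM in JEKO1, from 67.4 to 269 in MAVER1 and from 132 to 182 in JVM2, with every library with both drugs above every control. KDELR3 differed from the others in its line pattern, with log2 ratios of 1.75 in JEKO1, 1.48 in MAVER1 and 1.71 in JVM2, although JEKO1 and MAVER1 held at most 16 and 24 reads for it. The sensor EIF2AK3 passed at any size (0.82 ± 0.21), and XBP1 did not pass (0.58 ± 0.33, adjusted p = 0.21). The counts do not separate spliced from unspliced XBP1.

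ER chaperones and folding enzymes were higher by less: 2 of 26 were called higher, the oxidase ERO1B (1.72 ± 0.35) and the prolyl isomerase FKBP14 (1.27 ± 0.27), 0 were called lower, and 12 passed at any size, with a median of 0.47 (0.82 in JEKO1, 0.62 in MAVER1 and 0.03 in JVM2). HSPA5 (BiP), the main ER chaperone, went from 531 to 1019 CPM in JEKO1, from 462 to 878 in MAVER1 and from 725 to 789 in JVM2 and passed at any size (log2 fold change 0.67 ± 0.17, adjusted p = 0.0177). HYOU1 (0.93 ± 0.22) and HSP90B1 (0.60 ± 0.17) passed too, whereas CANX (0.46 ± 0.16, adjusted p = 0.0509) and CALR (0.26 ± 0.12, adjusted p = 0.123) did not. The groups did not overlap for HSPA5, with log2 ratios of 0.94 in JEKO1, 0.93 in MAVER1 and 0.12 in JVM2.

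Promoters of these genes were searched for the sites that the literature on the UPR assigns to ATF6 and ATF4. The ER stress element was taken as CCAAT and CCACG with 9 bases between them, on either strand, within 250 bases before a RefSeq start (GRCh38.p14). It was present in 4 of the 10 chaperone genes that passed at any size and have a promoter in the table, in 0.14% of the 12102 tested genes with a promoter there and in 0.074% of all 35116 promoters. Called UPR sensors and IRE1-XBP1 targets held it in 0 of 7 promoters and called PERK-ATF4-CHOP targets in 0 of 13. Among all genes called it was in 2 of 429 higher (0.466%) and 0 of 158 lower. These shares were not tested. The element was chosen from work on ATF6, which raises chaperones, so its presence in chaperone genes is not a result of these data. The chaperone genes were those that passed at any size, the other gene sets those called, and no share was taken for chaperone genes that did not pass. The matches in the chaperone genes are shown because they lie in genes that moved together, with the element in capitals, and read 5′ to 3′ on the strand of the gene.
HSPA5, chr9:125241351-125241449 (- strand): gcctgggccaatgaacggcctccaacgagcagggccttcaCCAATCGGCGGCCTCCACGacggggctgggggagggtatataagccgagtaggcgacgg
HSP90B1, chr12:103930206-103930349 (+ strand): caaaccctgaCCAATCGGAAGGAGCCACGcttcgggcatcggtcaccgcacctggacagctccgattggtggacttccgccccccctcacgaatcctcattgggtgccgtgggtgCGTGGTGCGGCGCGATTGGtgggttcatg
CRELD2, chr22:49918514-49918612 (+ strand): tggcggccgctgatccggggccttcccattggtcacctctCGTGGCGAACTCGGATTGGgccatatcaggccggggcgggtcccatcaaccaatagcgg
ERO1B, chr1:236282143-236282208 (- strand): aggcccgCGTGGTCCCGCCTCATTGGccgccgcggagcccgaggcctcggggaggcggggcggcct
HSP90B1 held 2 matches, and in CRELD2 and ERO1B the element lies on the other strand. An ATF4-type site, TGATGNAA on either strand, was present in 2 of 13 promoters of called PERK-ATF4-CHOP targets, in 2.45% of tested genes and in 3.14% of all promoters. It is shown for CHAC1, where it reads on the other strand, with the match in capitals.
CHAC1, chr15:40953221-40953315 (+ strand): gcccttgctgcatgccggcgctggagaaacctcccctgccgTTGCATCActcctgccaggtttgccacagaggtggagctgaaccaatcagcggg
A match of letters in such a window is a description of sequence only.

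Genes of amino acid supply, which ATF4 also controls, changed in part. Of 15 amino acid synthesis genes 2 were called higher, ASS1 and ALDH1L2, the mitochondrial folate enzyme (2.62 ± 0.44), 0 lower, with a median of 0.29. ALDH1L2 had its bulk of reads in MAVER1, where it went from 22.0 to 191 CPM. PHGDH, at the entry of serine synthesis, did not pass (0.54 ± 0.25, adjusted p = 0.129). Of 14 amino acid transporters SLC6A9, for glycine, and SLC7A11, the cystine carrier, were called higher (2.21 ± 0.45 and 1.30 ± 0.30), 0 lower, with a median of 0.28. SLC7A11 went from 9.55 to 29.5 CPM in JEKO1, from 10.7 to 45.0 in MAVER1 and from 15.3 to 17.0 in JVM2, without overlap of the groups. Of 20 aminoacyl-tRNA synthetases only WARS1 was called higher, from 113 to 496 CPM in JEKO1, from 172 to 489 in MAVER1 and from 400.3 to 433 in JVM2 (log2 fold change 1.25 ± 0.29, adjusted p = 0.0108), 0 lower, and AARS1 passed at any size (0.57 ± 0.19). The median of the synthetases was -0.06, and with library totals it was 0.06.

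In the secretory pathway 3 of 46 genes of ER to Golgi transport were called higher, KDELR3, SEC24D and the Golgi tether GOLGA2, and 0 lower. At any size 21 passed higher and 3 lower, with a median of 0.29. GOLGA2 went from 37.5 to 83.6 CPM in JEKO1, from 29.5 to 94.2 in MAVER1 and from 69.4 to 105 in JVM2 (log2 fold change 1.15 ± 0.16, adjusted p = 0.0031), and the COPI coat subunit COPA passed with a smaller difference (0.53 ± 0.08). Of 45 N-glycosylation enzymes 1 was called higher, PGM3 of the hexosamine pathway (log2 fold change 1.20 ± 0.19, adjusted p = 0.00373), and 0 lower, with a median of 0.07. Of 39 autophagy and ER-phagy genes CCPG1 and WIPI1, a phosphoinositide-binding autophagy protein (log2 fold change 1.58 ± 0.39, adjusted p = 0.0142), were called higher and 0 lower, with a median of 0.17. RTN3, an ER-phagy receptor of ER tubules, passed at any size (0.85 ± 0.16).

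Beside the combination, the medians of these lists with ibrutinib alone were near 0. The median log2 fold change against Ctrl was 1.24 with both drugs, 0.92 with ironomycin and -0.06 with ibrutinib for PERK-ATF4-CHOP targets, 0.68, 0.58 and -0.06 for UPR sensors and IRE1-XBP1 targets, and 0.47, 0.48 and -0.09 for chaperones. These comparisons share the control libraries. For DDIT3 the log2 fold change was 1.82 with both drugs, 1.39 with ironomycin and -0.18 with ibrutinib, for TRIB3 1.96, 1.32 and -0.09, and for ERN1 2.42, 1.82 and -0.28. Set against ironomycin alone in the same fit, the adjusted p-values of the combination were 0.605 for DDIT3, 0.638 for TRIB3 and 0.605 for ERN1, which does not show that the treatments act alike.

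**Figure D2:**
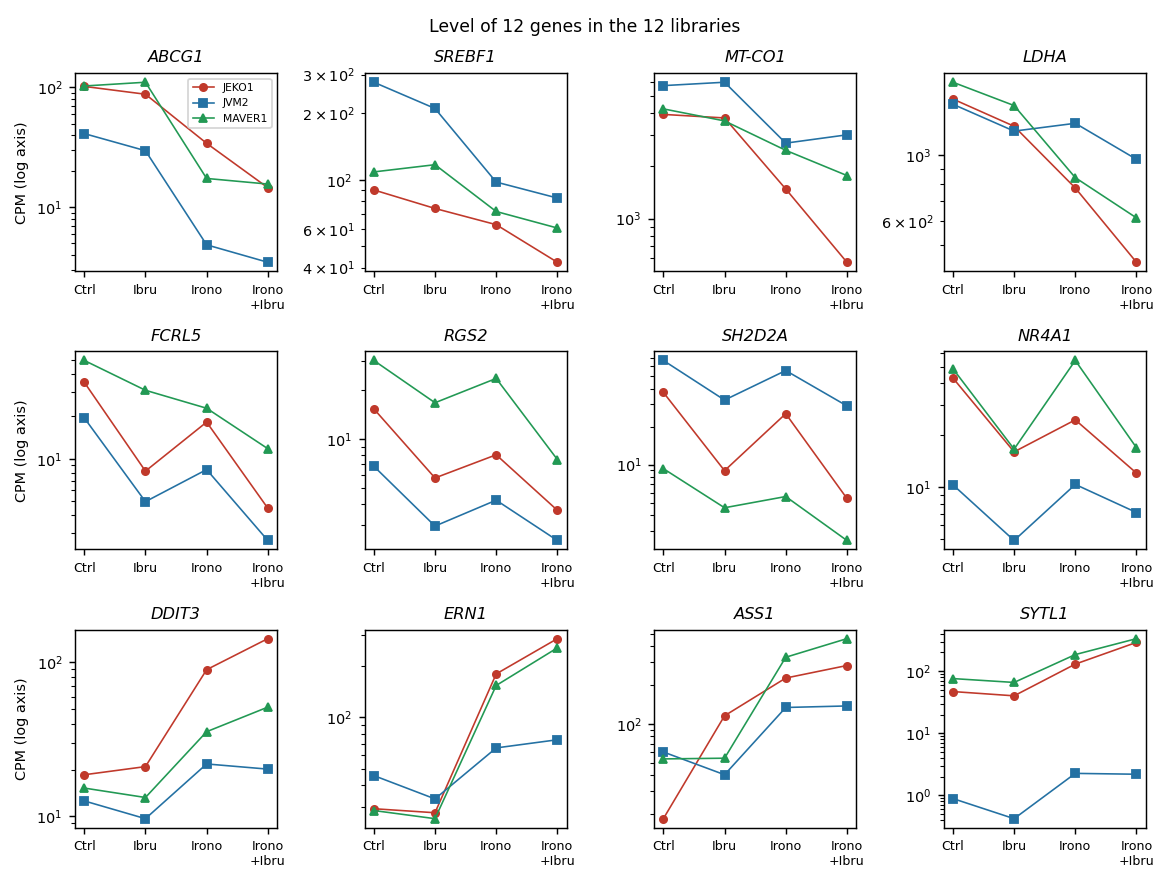
CPM of 12 genes in all 12 libraries, by treatment, on log axes; symbols and lines mark JEKO1, JVM2 and MAVER1, each with 1 library per treatment. ABCG1 and SREBF1 are lower wherever ironomycin was given, RGS2, SH2D2A and NR4A1 are lower with ibrutinib alone than in Ctrl in each line, and DDIT3, ERN1 and ASS1 are highest with ironomycin or both drugs.

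Genes of the BCR pathway were listed by role. None of the 38 proximal signaling genes was called (0 higher and 0 lower), against 4.81% of all genes called higher and 1.48% lower. At any size 1 passed higher and 12 lower, against 14.2% and 14.0% of all genes, and the median was -0.21. With so small a background share called lower, 0 calls in a list of this size is no result by itself. BTK, the target of ibrutinib, went from 198 to 187 CPM in JEKO1, from 221 to 191 in MAVER1 and from 134 to 104 in JVM2 (log2 fold change -0.22 ± 0.09, adjusted p = 0.0903). The kinase LYN (-0.78 ± 0.16), the phosphatase PTPRC (CD45; -0.97 ± 0.15) and the receptor component CD79A (-0.53 ± 0.13) were lower and passed at any size only.

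The inhibitory receptors and phosphatases held 7 called lower and 1 higher of 24 tested, with 10 passing lower and 2 higher at any size and a median of -0.52. The difference between the lists was not tested. Besides FCRL5 and PTPN6 the genes called lower were FCRL1 (-3.06 ± 0.35), FCRL2 (-3.08 ± 0.37) and FCRL3 (-2.31 ± 0.61), the inhibitory Fc receptor FCGR2B (-1.13 ± 0.37) and CD5 (-1.84 ± 0.24). FCRL1 was listed with its family and is not itself an inhibitory receptor, so the counts and median are not of inhibitors alone. FCRL2 went from 7.71 to 1.42 CPM in JEKO1 and from 12.1 to 0.897 CPM in MAVER1. JVM2 held at most 1 read of FCRL1, FCRL2 and FCRL3 and at most 2 of CD5, so those changes were measured in the other lines only. FCGR2B had log2 ratios of -0.37 in JEKO1, -2.74 in MAVER1 and -0.44 in JVM2, and its call was lost with library totals (adjusted p = 0.0721), with a filter of at least 1 CPM in 3 libraries (0.0504), without JEKO1 (0.108), without JVM2 (0.0513) and without MAVER1 (log2 fold change -0.41, adjusted p = 0.0991). PAG1, a membrane adaptor that recruits CSK, was the member called higher (1.03 ± 0.26). Of 22 SH2 adaptors SH2D2A, STAP1 and GRAP2 (-1.44 ± 0.21) were called lower and GAB2 higher (1.90 ± 0.45), with a median of -0.05 that was 0.08 with library totals.

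Immediate early and ERK feedback genes, which BCR signaling induces within minutes, held 5 called lower and 0 higher of 31 tested, with a median of -0.29. NR4A1, an orphan nuclear receptor, went from 42.9 to 12 CPM in JEKO1, from 48.6 to 16.9 in MAVER1 and from 10.3 to 7.11 in JVM2 (log2 fold change -1.32 ± 0.25, adjusted p = 0.00521). With ibrutinib alone it was at 16.0 CPM in JEKO1, 16.6 in MAVER1 and 4.9 in JVM2, and with ironomycin alone at 24.5 CPM in JEKO1, 54.2 in MAVER1 and 10.3 in JVM2. EGR1, a zinc finger factor, went from 9.37 to 1.25 CPM in JEKO1, from 0.194 to 0.369 in MAVER1 and from 13.9 to 6.44 in JVM2 (log2 fold change -1.57 ± 0.49, adjusted p = 0.0375), with 2.34 CPM in JEKO1, 0.0808 in MAVER1 and 3.61 in JVM2 with ibrutinib and 4.66 CPM in JEKO1, 0.859 in MAVER1 and 21.1 in JVM2 with ironomycin. MAVER1 held at most 14 reads of EGR1 in the libraries compared and moved the other way. EGR2 had log2 ratios of -3.02 in JEKO1, 0.49 in MAVER1 and -1.65 in JVM2 (log2 fold change -1.49 ± 0.48, adjusted p = 0.0408), and the fitted change was 0.17 with ironomycin and -2.29 with ibrutinib. SPRY1 and DUSP6 (-1.65 ± 0.43) had more of their fall with ironomycin, -1.14 and -1.64, than with ibrutinib, -0.37 and 0.22; DUSP6 had at most 11 reads in JEKO1 and 2 in JVM2 in the Ctrl and Irono+Ibru libraries. DUSP2, a phosphatase of ERK, passed at any size (-0.75 ± 0.15). Without JVM2 the calls of EGR1 and EGR2 were lost (adjusted p = 0.0822 and 0.157), and with DESeq2 that of EGR1 (adjusted p = 0.17).

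The serum response element (CArG box), through which ERK signals reach EGR genes, was searched in the same windows. It was present for 2 of the 5 called immediate early and feedback genes, for 10 of 158 genes called lower that have a promoter in the table (6.33%), for 4 of 429 called higher (0.932%) and for 188 of 12102 tested (1.55%). These shares were not tested. The box was chosen for its known part at EGR genes, so its presence there is not a result of these data. The windows of EGR1 and EGR2 are shown with the boxes in capitals.
EGR1, chr5:138465340-138465439 (+ strand): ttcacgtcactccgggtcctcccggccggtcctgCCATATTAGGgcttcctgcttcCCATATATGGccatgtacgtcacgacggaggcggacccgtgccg
EGR2, chr10:62816383-62816482 (- strand): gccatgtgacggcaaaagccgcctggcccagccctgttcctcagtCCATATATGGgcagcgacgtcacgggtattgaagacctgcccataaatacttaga
EGR1 held 2 such boxes in the window and EGR2 held 1, at 1 of its 3 listed starts.

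The falls of FCRL5, RGS2, SH2D2A, HCST and PDCD1 stood beside lower fitted levels with ibrutinib alone, but none of the 5 passed for ibrutinib against Ctrl (adjusted p = 0.326, 0.326, 0.439, 1 and 0.99). With both drugs, ironomycin and ibrutinib the log2 fold changes against Ctrl were -2.64, -1.09 and -1.54 for FCRL5, -1.88, -0.66 and -1.15 for RGS2, -1.92, -0.52 and -1.40 for SH2D2A, and -1.57, -0.56 and -1.15 for HCST. Set against ironomycin alone, the combination had adjusted p-values of 0.206 for FCRL5 and 0.0592 for RGS2, and set against ibrutinib alone 0.0175 and 0.0155. By the latter test both genes differed between the combination and ibrutinib.

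Of 34 NF-kB targets and TNF-family receptors 0 were called, against 4.81% of all genes called higher and 1.48% lower. At any size 2 passed higher and 4 lower, against 14.2% and 14.0% of all genes. The median of the list was -0.24, with -0.79 in JEKO1, -0.17 in MAVER1 and 0.19 in JVM2. BCL2A1, a survival gene of this list, had log2 ratios of -3.55 in JEKO1, -0.27 in MAVER1 and 0.06 in JVM2 (log2 fold change -1.25 ± 0.69, adjusted p = 0.196), and CD83, an activation marker, of -2.58 in JEKO1, -0.12 in MAVER1 and 0.32 in JVM2 (log2 fold change -0.92 ± 0.48, adjusted p = 0.176); neither passed. Both were near their control level in JVM2 and MAVER1, and MAVER1 held at most 5 reads of BCL2A1 in the libraries compared. Without JEKO1 their log2 fold changes were 0.03 and 0.10, and without JVM2 that of BCL2A1 was -3.05 (adjusted p = 0.044). Of 25 genes listed as chemokines and homing receptors 3 were called lower and 0 higher (median -0.35). The genes called were CCR1 (-1.52 ± 0.25), CXCR3 (-1.34 ± 0.41) and RGS2, which is neither a chemokine nor a homing receptor. CXCR3 went from 63.2 to 27.1 CPM in JVM2, the other lines held at most 9 reads of it, and its change was -2.11 with DESeq2 (adjusted p = 0.264). Of 25 MCL surface markers CD5 and CD52, the target of alemtuzumab (log2 fold change -1.54 ± 0.40, adjusted p = 0.0174), were called lower and 0 higher, with a median of -0.33 (-0.70 in JEKO1, -0.40 in MAVER1 and 0.05 in JVM2). CD52 went from 28.4 to 3.38 CPM in JEKO1, from 87.6 to 29.6 in MAVER1 and from 93.1 to 67.1 in JVM2.

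Among 28 B-cell and plasma cell transcription factors ID3, an inhibitor of E proteins, was called lower (-1.08 ± 0.26), and SOX11, an oncogene of conventional MCL, and MEF2B, a transcription factor of germinal center B cells, were called higher (1.22 ± 0.26 and 1.89 ± 0.41), with a median of -0.13. SOX11 went from 108 to 181 CPM in JEKO1 and from 55.4 to 181 CPM in MAVER1 and had 0 reads in both JVM2 libraries, and MEF2B had at most 4 there. Of the 11 B-cell markers TCL1A, a co-activator of AKT, was called lower (-1.03 ± 0.13), 0 higher, with a median of -0.33. TCL1A lay just under the fold minimum with library totals (-0.896), with at least 1 CPM in 3 libraries (-0.998) and without JVM2 (-0.98). Its adjusted p-value was 0.0562 without JEKO1 and 0.0669 without MAVER1, so each of these settings lost the call. In bulk RNA fewer cells in a state and less RNA per cell cannot be told apart.

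Targets of the liver X receptor (LXR), which senses oxysterols, had a median below 0 of like size in the 3 lines. Of 11 tested 3 were called lower, ABCG1, ABCA1 and SREBF1, 0 higher, and 6 passed lower at any size; the median was -0.57, with -0.49 in JEKO1, -0.53 in MAVER1 and -0.64 in JVM2. SREBF1, the master factor of fatty acid synthesis, went from 90.0 to 42.3 CPM in JEKO1, from 109 to 60.5 in MAVER1 and from 277 to 82.7 in JVM2 (log2 fold change -1.24 ± 0.18, adjusted p = 0.00332), without overlap of the groups. ABCA1, a cholesterol exporter, went from 53 to 29.9 CPM in JEKO1, from 40.5 to 12.1 in MAVER1 and from 1.37 to 1.05 in JVM2 (log2 fold change -1.11 ± 0.34, adjusted p = 0.0338). Its call was lost with DESeq2 (-0.97, adjusted p = 0.0933) and with library totals (-0.97, adjusted p = 0.0581). MYLIP, which degrades the LDL receptor, and LPCAT3, a phospholipid remodeling enzyme, passed at any size (-0.91 ± 0.12 and -0.52 ± 0.09). With ironomycin alone the median was -0.43 and with ibrutinib alone -0.17.

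Cholesterol and fatty acid synthesis genes had an opposite median of 0.24 over 34 tested, with 0 called higher, SREBF1 called lower, and 15 passing higher and 4 lower at any size. HMGCS1 went from 139 to 217 CPM in JEKO1, from 58.4 to 138 in MAVER1 and from 134 to 172 in JVM2 (log2 fold change 0.75 ± 0.17, adjusted p = 0.0117), and the lanosterol synthase LSS had a change of 0.69 ± 0.12. The median was 0.33 with ironomycin alone and -0.16 with ibrutinib alone.

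Enzymes of glycolysis were lower in JEKO1 and MAVER1 and, by less, in JVM2. Of 35 hypoxia targets and glycolysis genes 5 were called lower, all enzymes of glycolysis or lactate formation, and 1 higher, with a median of -0.33. LDHA, lactate dehydrogenase, went from 1542 to 436 CPM in JEKO1, from 1756 to 615 in MAVER1 and from 1481 to 967 in JVM2 (log2 fold change -1.31 ± 0.22, adjusted p = 0.00392). Every library with both drugs lay below every control. TPI1 (log2 fold change -1.17 ± 0.25, adjusted p = 0.00806) and ENO1 (log2 fold change -1.01 ± 0.22, adjusted p = 0.00948) did not overlap either, and PGAM1 (log2 fold change -1.09 ± 0.21, adjusted p = 0.00579) and PGK1 (log2 fold change -1.03 ± 0.17, adjusted p = 0.00383) did, since JVM2 began higher than the other lines. With library totals PGAM1 (-0.97), PGK1 (-0.91) and ENO1 (-0.89) lay just under the fold minimum, with adjusted p-values still under 0.05, which left LDHA and TPI1 called. PKM (-0.96 ± 0.21) and GAPDH (-0.70 ± 0.14) passed at any size. For LDHA the change was -0.77 with ironomycin and -0.29 with ibrutinib, and for PGK1 -0.60 and -0.25. The member called higher was NDRG1, a hypoxia and iron-chelation responsive gene (log2 fold change 1.17 ± 0.21, adjusted p = 0.0049), at 0.913 to 2.31 CPM in Ctrl.

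Many nuclear genes of mitochondria passed lower with changes under the fold minimum. Of 58 respiratory chain subunits 0 were called, 48 passed lower and 0 higher at any size, and the median was -0.56 (-0.76 in JEKO1, -0.65 in MAVER1 and -0.21 in JVM2). ATP5F1B, a subunit of ATP synthase, went from 2037 to 1151 CPM in JEKO1, from 1749 to 1012 in MAVER1 and from 1733 to 1404 in JVM2 (log2 fold change -0.64 ± 0.13, adjusted p = 0.00662), without overlap. Of 50 mitochondrial ribosomal proteins MRPS28 was called lower (log2 fold change -1.02 ± 0.18, adjusted p = 0.00473), 0 higher, 43 passed lower at any size, and the median was -0.50. Against a background of 14.0% of genes passing lower at any size, the subunits and the ribosomal proteins held 48 of 58 and 43 of 50. Iron-sulfur cluster and heme synthesis held 13 lower and 2 higher of 33 at any size, with 0 called and a median of -0.29, and CIAPIN1, of the cytosolic cluster pathway, had -0.75 ± 0.12.

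The genes of the mitochondrial genome behaved unequally between lines and between genes. Of 13 protein-coding genes 4 were called lower and 0 higher, with a median of -0.93, but the median ratio was -2.49 in JEKO1, -0.70 in MAVER1 and 0.02 in JVM2. MT-CO1, of cytochrome c oxidase, went from 3914 to 564 CPM in JEKO1, from 4208 to 1757 in MAVER1 and from 5708 to 2995 in JVM2 (log2 fold change -1.57 ± 0.31, adjusted p = 0.00654). MT-CO2 (log2 fold change -1.41 ± 0.38, adjusted p = 0.0195), MT-CO3 (log2 fold change -1.31 ± 0.35, adjusted p = 0.0204) and MT-ND6 (log2 fold change -1.42 ± 0.33, adjusted p = 0.0117) were also called, and the groups of these 4 genes did not overlap. MT-ND3, which had the lowest ratio in JEKO1, went from 344 to 25.6 CPM in JEKO1, from 375 to 166 in MAVER1 and from 355 to 345 in JVM2 and did not pass (log2 fold change -1.41 ± 0.58, adjusted p = 0.0933). MT-ND2 stood apart, going from 1079 to 876 CPM in JEKO1, from 1246 to 1885 in MAVER1 and from 1091 to 2677 in JVM2 (log2 fold change 0.58 ± 0.26, adjusted p = 0.119), and was at 1600 CPM in JEKO1, 2289 in MAVER1 and 2550 in JVM2 with ironomycin alone. The genome is transcribed as long precursors, so MT-CO1, MT-ND2 and MT-ND3 of the same strand share their transcription. The libraries were selected for polyadenylated RNA, and its effect on these transcripts was not tested.

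**Figure D3:**
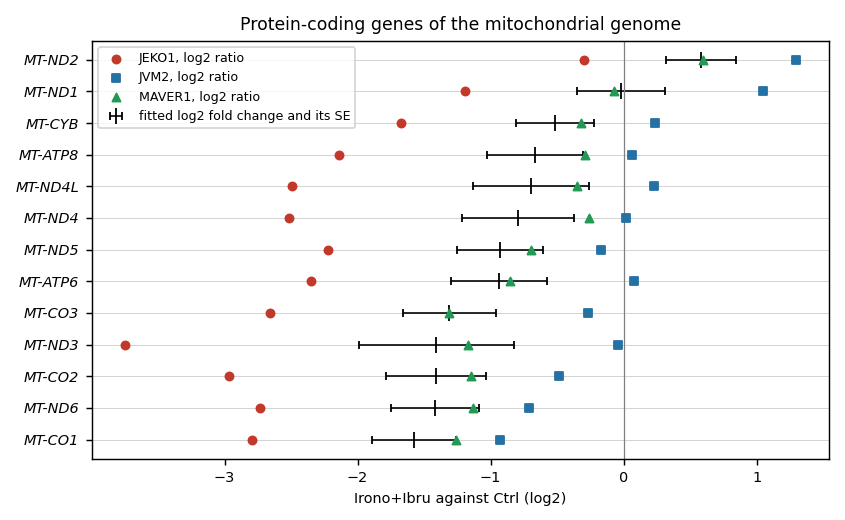
Log2 change of the 13 protein-coding genes of the mitochondrial genome with both drugs against control; black bars give the fitted value with its SE and symbols the log2 ratio in each line. JEKO1 lies below 0 for all 13 genes, whereas in JVM2 MT-ND2 lies above 1 and MT-CO1 near -1.

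Genes of protein folding and turnover outside the ER had medians below 0. Of 25 cytosolic and mitochondrial heat shock proteins FKBP4, a co-chaperone of HSP90 (log2 fold change -1.01 ± 0.17, adjusted p = 0.00379), and HSPB1, a small heat shock protein (log2 fold change -1.21 ± 0.23, adjusted p = 0.00518), were called lower, 0 higher, and 16 passed lower at any size, with a median of -0.53. HSPB1 went from 124 to 60.6 CPM in JEKO1, from 363 to 95.2 in MAVER1 and from 126 to 79.0 in JVM2. HSP90AA1 (-0.59 ± 0.13) and HSP90AB1 (-0.69 ± 0.15) passed at any size and did not overlap. Of 34 proteasome genes 0 were called, 29 passed lower at any size and 1 higher, with a median of -0.44. The subunit PSMD2 had -0.47 ± 0.10, while the exception was NFE2L1, the factor that drives proteasome genes, with 0.95 ± 0.14 (adjusted p = 0.00337). Of 37 genes of ribosome biogenesis and MYC targets MXD1 and MXD4, which oppose MYC, were called higher (1.18 ± 0.30 and 1.06 ± 0.28), 0 lower, and 25 passed lower at any size, with a median of -0.42. MYC itself went from 787 to 924 CPM in JEKO1, from 613 to 584 in MAVER1 and from 238 to 298 in JVM2 (log2 fold change 0.16 ± 0.10, adjusted p = 0.24), and NPM1 passed lower (-0.54 ± 0.13).

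Proliferation genes also had medians below 0. Of 42 genes of mitosis and the spindle the kinase PLK1 and cyclin CCNB1 were called lower, 0 higher, and 34 passed lower at any size, with a median of -0.55 (-0.69 in JEKO1, -0.64 in MAVER1 and -0.30 in JVM2). PLK1 went from 346 to 147 CPM in JEKO1, from 260.2 to 90.1 in MAVER1 and from 259 to 159 in JVM2 (log2 fold change -1.15 ± 0.15, adjusted p = 0.00253), and CCNB1 from 247 to 99.9 CPM in JEKO1, from 215 to 90.6 in MAVER1 and from 175 to 118 in JVM2 (log2 fold change -1.03 ± 0.14, adjusted p = 0.00286). Neither overlapped between groups, and their changes were -0.78 and -0.67 with ironomycin and -0.02 and 0.03 with ibrutinib. TOP2A passed at any size (-0.49 ± 0.12). Of 41 genes of DNA replication and nucleotide supply 0 were called and 26 passed lower at any size, with a median of -0.47 and every one of the 41 below 0. The helicase subunits MCM2 and MCM7 had -0.62 ± 0.13 and -0.50 ± 0.11.

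Of 22 genes of the D cyclins, CDKs and the RB axis 0 were called (median -0.16). CCND1, the cyclin activated by the MCL translocation, went from 3178 to 2182 CPM in JEKO1, from 4252 to 4828 in MAVER1 and from 322 to 216 in JVM2 (log2 fold change -0.31 ± 0.16, adjusted p = 0.167), and did not pass. CCND2 was expressed mainly in JVM2, at 243 CPM in Ctrl and 251 CPM with both drugs. CDK4 passed lower at any size (-0.43 ± 0.11). Of 29 p53 targets SESN2 and TP53INP1 (log2 fold change 1.79 ± 0.29, adjusted p = 0.00373) were called higher, 0 lower, and 6 passed higher at any size, with a median of 0.13 (-0.14 in JEKO1, 0.14 in MAVER1 and 0.34 in JVM2). SESN2 is also among the ATF4 targets. CDKN1A (p21) passed at any size (0.63 ± 0.19), with log2 ratios of 0.96 in JEKO1, 0.83 in MAVER1 and 0.03 in JVM2. Of 31 homologous recombination and Fanconi genes 0 were called, with a median of -0.20. At any size 1 passed higher and 6 lower, against 14.2% and 14.0% of all genes.

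Of 21 iron handling genes tested 0 were called, against 4.81% of all genes called higher and 1.48% lower. At any size 2 passed higher and 2 lower, against 14.2% and 14.0% of all genes, and the median was 0.08. Whether the list differs from all genes was not tested. TFRC, the transferrin receptor, whose mRNA is stabilized when iron is low, went from 239.5 to 226 CPM in JEKO1, from 286 to 401 in MAVER1 and from 439 to 928 in JVM2 (log2 fold change 0.50 ± 0.19, adjusted p = 0.0787) and did not pass. FTH1, the ferritin heavy chain, passed at any size, going from 225 to 266 CPM in JEKO1, from 114 to 193 in MAVER1 and from 583 to 930.0 in JVM2 (log2 fold change 0.56 ± 0.10, adjusted p = 0.00499), and HFE was lower (-0.90 ± 0.24, adjusted p = 0.0179). TFRC was near its control level in JEKO1 and more than 2-fold higher in JVM2. Of 30 genes listed as NRF2 targets and ferroptosis defense CHAC1 and SLC7A11 were called higher, 0 lower, with 4 passing higher and 8 lower at any size and a median of -0.03 that was 0.08 with library totals. CHAC1 breaks down glutathione, so it is not a defense gene, and it is also among the ATF4 targets. SLC7A11 is also among the amino acid transporters. PRDX1, a peroxiredoxin, was among those lower (-0.49 ± 0.13).

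Of 42 lysosomal genes 0 were called, against 4.81% of all genes called higher and 1.48% lower, and the median of the list was 0.12. At any size 12 passed higher and 2 lower, against 14.2% and 14.0% of all genes. The chloride-proton exchanger CLCN7 had 0.96 ± 0.13, the peptidase TPP1 0.82 ± 0.17 and the protease CTSD 0.79 ± 0.22. Of 19 metallothioneins and zinc transporters 0 were called, 4 passed higher and 0 lower at any size, with a median of 0.06.

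Of 19 BCL2 family genes HRK, a BH3-only protein, was called higher (log2 fold change 1.30 ± 0.30, adjusted p = 0.0117), 0 lower, with a median of 0.00. HRK went from 13.5 to 23.7 CPM in JEKO1 and from 5.14 to 18.3 CPM in MAVER1, and JVM2 held at most 1 read. With ibrutinib alone it was at 24.5 CPM in JEKO1 and 9.43 CPM in MAVER1. BCL2 went from 98.8 to 137 CPM in JEKO1, from 586 to 1193 in MAVER1 and from 140.0 to 193 in JVM2 and passed at any size (log2 fold change 0.65 ± 0.14, adjusted p = 0.00926). MCL1 went from 333 to 248 CPM in JEKO1, from 231 to 217 in MAVER1 and from 271 to 234 in JVM2 (log2 fold change -0.24 ± 0.09, adjusted p = 0.0761) and did not pass.

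Antigen presentation and interferon genes gave 1 call. Among all genes tested 4.81% were called higher and 1.48% lower, and 14.2% passed higher and 14.0% lower at any size. Of 18 MHC class II genes 0 were called, 3 passed higher and 0 lower at any size (median 0.05), and of 21 MHC class I genes 0 were called, 4 passed higher and 5 lower (median 0.10). Of 39 interferon-stimulated genes STAT2 was called higher and 0 lower, and 2 passed in each direction at any size. The median was 0.04, with 1.06 in JEKO1, 0.08 in MAVER1 and -0.49 in JVM2. STAT2, a subunit of the interferon-stimulated transcription complex, went from 84.1 to 298 CPM in JEKO1, from 72.4 to 230.3 in MAVER1 and from 242 to 226 in JVM2 (log2 fold change 1.16 ± 0.33, adjusted p = 0.0251). XAF1 had log2 ratios of 2.0 in JEKO1, 1.21 in MAVER1 and -0.77 in JVM2, IFIT2 of 2.07 in JEKO1, 1.62 in MAVER1 and -0.32 in JVM2 and OAS3 of 1.51 in JEKO1, 2.42 in MAVER1 and -0.71 in JVM2, and none of these passed. Without JVM2, the line in which each was lower, all 3 were called higher, with log2 fold changes of 1.55 (adjusted p = 0.0363), 1.82 (adjusted p = 0.0159) and 1.94 (adjusted p = 0.0052). These 3 genes were chosen after their values were seen, and 1288 of 17985 genes were called higher in that fit. Their calls there are therefore no separate result. MX2, an abundant member of the list, had 0.003 ± 0.10 in the main fit (adjusted p = 0.987). OAS3 was 247 CPM in the JVM2 control against 3.32 and 4.45 CPM in JEKO1 and MAVER1.

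**Figure D4:**
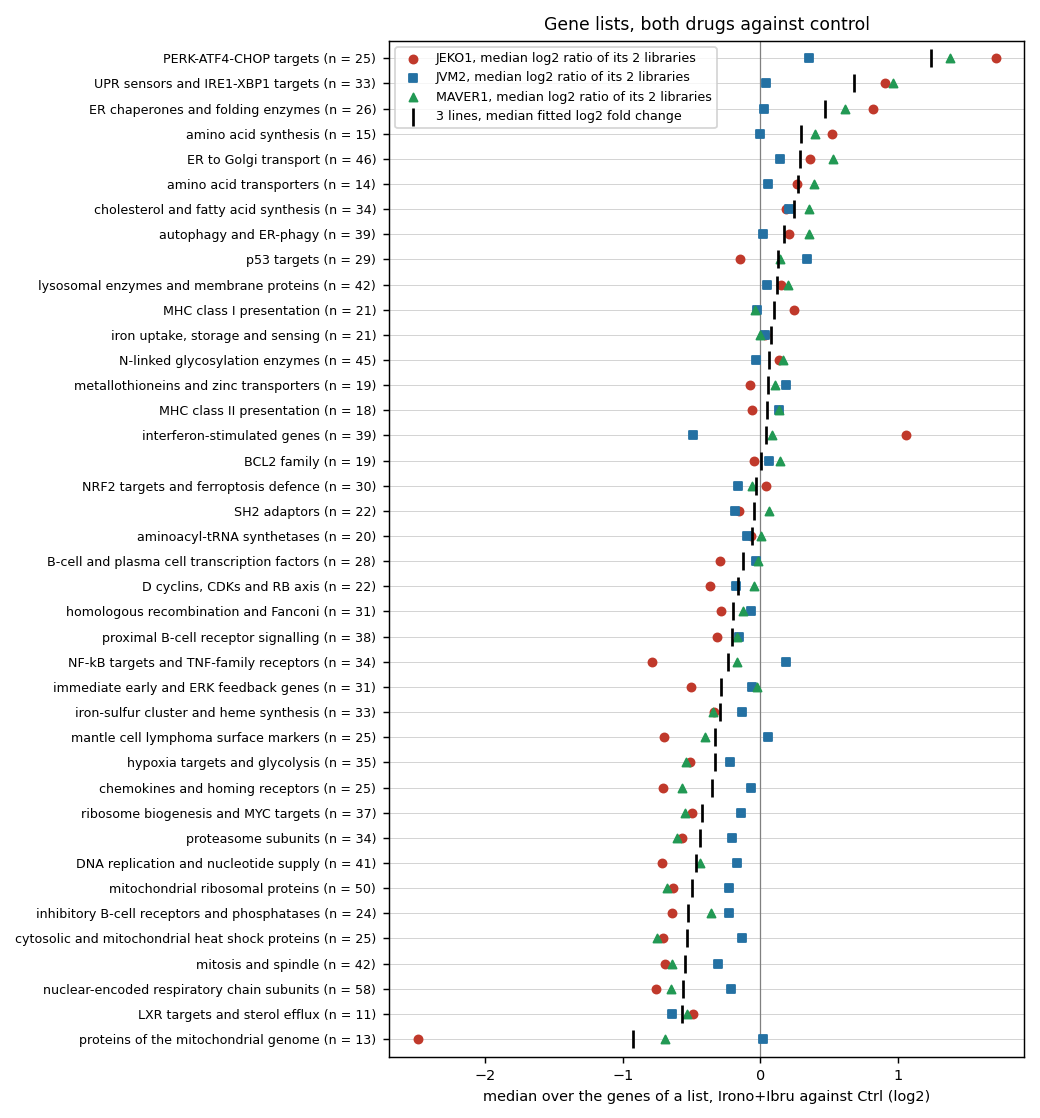
Median log2 change of the tested genes of 40 lists with both drugs against control; black bars give the median fitted value and symbols the median log2 ratio in each line. PERK-ATF4-CHOP targets lie highest at 1.24 and proteins of the mitochondrial genome lowest at -0.93, and JVM2 lies nearest to 0 for most of the lists but not for LXR targets.

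Genes that do not code for protein took a larger share of the rises than of the genes tested. Of 13718 protein-coding genes 3.34% were called higher and 1.47% lower, of 978 intergenic long non-coding RNAs 11.2% and 1.94%, of 1255 antisense genes 9.64% and 0.558%, and of 120 sense intronic genes 14.2% and 0%. Called genes are commoner at low levels, so the shares were set side by side within bins of mean log2 CPM. At 1 or more, 1.78% of 10500 protein-coding genes, 12.2% of 181 intergenic long non-coding RNAs and 6.57% of 213 antisense genes were called higher. Below -1 the shares were 7.56%, 9.84% and 9.27%. Processed pseudogenes, in contrast, stood at 0.658% of 152 at 1 or more and 6.5% of 354 below -1. These shares were not tested, and without the strand setting of the counting, reads of antisense genes and their partners cannot be told apart. The TMM factor was higher with both drugs than in Ctrl in each line, 1.193 against 1.045 in JEKO1, 0.974 against 0.914 in JVM2 and 0.996 against 0.937 in MAVER1.

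**Figure D5:**
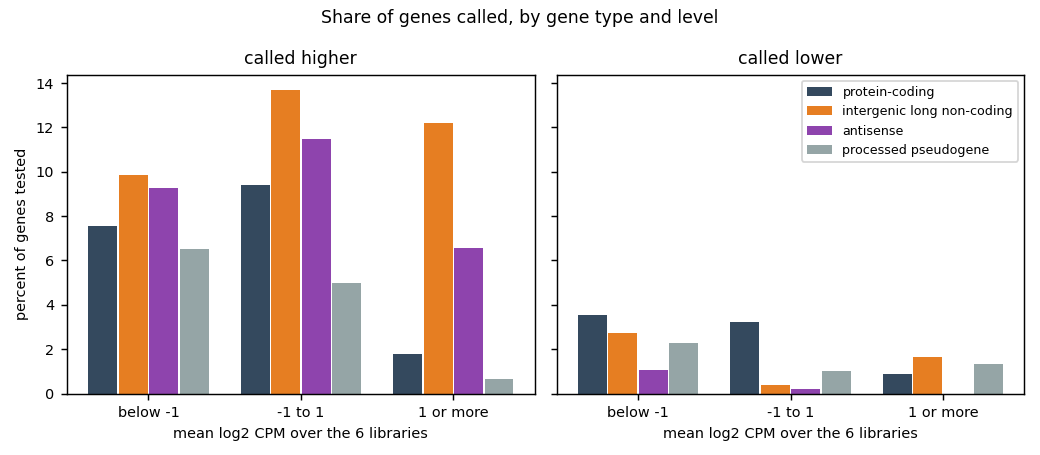
Percent of tested genes called higher (left) and lower (right) with both drugs against control, by gene type, in bins of mean log2 CPM over the 6 libraries. Intergenic long non-coding RNAs stand at 12.2% called higher in the bin of 1 or more, against 1.78% of protein-coding genes.

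Of 29 tested markers of other cell types 6 were called lower (20.7%, against 1.48% of all genes) and 1 higher. Of 11 markers of T and NK cells 5 passed the filter, with a summed level of 0.663 to 9.88 CPM in Ctrl and 0.765 to 4.80 CPM with both drugs; CD3E (-1.97 ± 0.33) and CD3G (-2.29 ± 0.48) were called lower, and CD3G had at most 1 read in JVM2 and in MAVER1. Of 11 markers of monocytes and granulocytes 7 passed, at 1.96 to 23.9 CPM and 0.686 to 26.5 CPM, and LYZ was called lower (-1.46 ± 0.34). Of 9 markers of erythroid cells and platelets 3 passed, at 0.442 to 2.54 CPM and 0.369 to 1.40 CPM, and the globin genes HBA1 (-1.76 ± 0.56) and HBA2 (-1.90 ± 0.64), near-identical copies that share reads, were called lower. Of 7 epithelial markers 6 passed, at 3.22 to 11.6 CPM and 4.42 to 24.8 CPM, with 0 called. Of 10 markers of fibroblasts and endothelium 3 passed, at 4.22 to 24.8 CPM and 2.63 to 33.9 CPM, and PDGFRB was called lower (-1.01 ± 0.29). Of 10 neuronal markers 5 passed, at 18.3 to 178 CPM and 13.8 to 187 CPM, and TUBB3, a tubulin, was called higher (1.15 ± 0.33), with at most 4 reads in JVM2 and in MAVER1. The part of these levels in the results above was not tested.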

How the data were processed

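PolyA-selected RNA of the 12 libraries was sequenced with a stranded paired-end protocol, and the authors deposited raw read counts for 63677 Ensembl genes, with no normalization. The submitters' processing notes name STAR, DESeq2 and GRCh37, without a version or role, and the counting tool is not given in the sources used here. Names were matched for 52181 genes from a table of Ensembl names and for 345 more from GENCODE 29, and 11151 had none. Counts were fitted with edgeR 4.0.16 in R 4.3.3 (filterByExpr, TMM, treatment plus line, all 12 libraries, 6 residual degrees of freedom), and the SE is the log2 fold change over the root of its F statistic. Tables and figures were made with Python 3.11.15, pandas 2.3.3, numpy 2.4.6 and matplotlib 3.10.9. Line entered as a block because each line gave 1 library per treatment. After removal of treatment means the 18 pairs of libraries of the same line had correlations of 0.926 to 0.976. The 48 pairs of different lines had -0.705 to -0.127. Removing the mean of 3 lines by itself pushes correlations between different lines below 0, so those negative values are partly arithmetic. Nothing says that libraries came from repeated cultures of a line, so p-values rest on how unequally the lines responded to treatment. The block removes differences in level between lines, and the remaining spread is pooled over all 12 libraries.

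Named genes were the 12 largest rises and falls, the 20 genes with the largest smallest-line ratio (of which some are described), up to 4 called and 2 abundant uncalled members of each list, and BTK, CCND1, CCND2, TFRC, MCL1 and BCL2. Other list members and PDCD1 were added after their values were seen. The 47 lists (40 of pathways, 7 of markers) hold 1245 distinct genes, of which 7 were not matched, and members and lists were chosen with earlier results of these data known. Alternatives were other scalings, filters, DESeq2 1.42.0, fewer libraries, no line block, no fold minimum and a prior count of 0.5 in the ratios. The tests were checked on simulated counts of 18430 genes, with 100 planted log2 changes of size 1 and 100 of size 2. Of these edgeR recovered 75 of the smaller and 78 of the larger, and DESeq2 79 and 75. Genes without a planted change that nevertheless passed numbered 15 with edgeR and 47 with DESeq2. These counts used an adjusted p-value under 0.05 without the fold minimum, so they are not for the rule of the calls. Both tests thus missed some planted changes and passed some genes without one, DESeq2 more of the latter. Promoter sequences are from RefSeq (GRCh38.p14).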

Additional observations from a re-analysis of the deposited data

Results flagged for a closer look

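For 3 lists the median ratio of JEKO1 and of JVM2 had opposite signs with at least 0.1 in size in each, and these differences between lines were not tested. The median of interferon-stimulated genes was 1.06 in JEKO1 and -0.49 in JVM2, a difference of 1.55 on the log2 scale. For NF-kB targets and TNF-family receptors JVM2 (0.19) lay 0.979 above JEKO1 (-0.79). For p53 targets JVM2 (0.34) lay 0.488 above JEKO1 (-0.14). Each line gave 1 library per treatment at its own doses, so line and dose cannot be told apart here.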

How the results depend on the processing

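DESeq2's size factors gave 858 genes higher and 298 lower, its Wald test 799 and 275, no filter 925 and 335, and a filter of at least 1 CPM in 3 libraries 612 and 193, each within 1.5 times of 898 and 277. Library totals gave 1266 higher and 197 lower, and no fold minimum 2655 and 2613. When only the 6 libraries compared were fitted, 1 gene was called higher and 4 lower. Without the replicate block, so with the pairing by line left out, edgeR called 0 higher and 0 lower, with 924 genes at an unadjusted p under 0.05 against 7684 with it, and OAS3 had a log2 fold change of -0.46. Without 1 line the number called ranged from 8 (without MAVER1) through 17 (without JEKO1) to 1288 (without JVM2) for higher and from 13 (without JEKO1) through 14 (without MAVER1) to 589 (without JVM2) for lower, and 28, 17 and 993 of these genes without JEKO1, MAVER1 and JVM2 were among the 1175. Without 1 line BCL2A1 ranged from -3.05 (without JVM2) to 0.033 (without JEKO1) and CD83 from -1.54 to 0.10. A prior count of 0.5 gave 70 genes changed by at least 1 in every line in place of 57.

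Of 163 named genes, 15 lost their call with library totals, among them PGK1, PGAM1, ENO1, CCNB1 and FKBP4, and 5 with DESeq2 (ABCA1, EGR1, WNT10A, CXCR3 and PAG1). The library-total values of PGK1, PGAM1, ENO1, CCNB1 and FKBP4 lay between -0.97 and -0.88. Pathway list medians changed sign with library totals for the aminoacyl-tRNA synthetases, NRF2 targets and SH2 adaptors, with DESeq2's factors or test, no filter or only the 6 libraries for the BCL2 family, and without the block for interferon-stimulated genes (-0.14). They did so without JEKO1 for NF-kB targets (0.03), interferon-stimulated genes (-0.17) and MHC class I genes (0.00), without JVM2 for p53 targets (-0.05), iron handling (-0.01), the BCL2 family (-0.11) and metallothioneins (-0.05), and without MAVER1 for MHC class II (-0.01) and interferon-stimulated genes (-0.01). Among marker lists, T and NK cells went from -1.97 to 0.22 without JVM2, and fibroblasts and endothelium (3 tested) from 0.20 to between -0.44 and -0.09 under 4 alternatives. The cause of these changes was not tested. With 3 lines at unequal doses, a change in 1 line has no replicate, and genes with few reads in a line rest on the others.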
